A study of Homo sapiens with 6 samples.

Results

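JIMT-1 cells, an established epithelial line of HER2+ human breast cancer, were grown in DMEM with fetal bovine serum. The line was isolated from a tumor that no longer responded to trastuzumab. CTL cells received PBS, and aCT1 cells received 250 µM of the aCT1 peptide, a stretch of the Cx43 C-terminus joined to an antennapedia sequence that carries it into cells, and RNA was collected 24 h later from 3 samples per group. Each RNA was hybridized to the barcoded probes of the nCounter Breast Cancer 360 panel, and each value is a normalized count, the number of barcodes of a gene after scaling to housekeeping genes. All 6 samples are of this single line, and no label says whether the 3 samples of a group were separate cultures, so p-values measure the spread between these samples, which may be technical. Of the 758 genes in the table, 38 are cytokines, chemokines, their receptors or genes named after TNF. They were chosen by symbol alone, as every gene starting with CCL, CCR, CXCL, CXCR, CX3C, TNF, CSF, or IL followed by a digit, with IL20RB left out.

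Cytokines and chemokines are small secreted proteins that cells use to call in and instruct one another. Chemokines bind G protein-coupled receptors and guide leukocytes along a gradient, most interleukins and colony-stimulating factors bind paired receptor chains that activate JAK kinases and STAT factors, and TNF signals mainly to NF-κB and cell death. Leukocytes make and sense most of them. Carcinoma cells without leukocytes beside them commonly keep receptors such as those for IL-4 and IL-13, and they can secrete IL-6 and the neutrophil attractant CXCL8.

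Few of these genes were expressed above background in JIMT-1 cells, and none of those that were passed the test of aCT1 against CTL after adjustment. The same held for the whole table, where 0 of 758 genes (0.0%) passed. A mean of 40 or more normalized counts over the 6 samples, the level taken here as above background, was reached by 9 of the 38 genes (23.7%), against 454 of all 758 genes (59.9%). In order of level they were IL13RA1, IL4R, TNF, IL11RA, IL6, CXCL8, IL6R, CCL3L1 and CSF3R. The remaining 29 genes had means of 5.96 to 39.0 with a median of 15.7. None was listed at 0 in any sample, as was true of all 758 genes. By role, 5 of 14 interleukin and colony-stimulating factor receptors reached 40, as did 1 of 4 interleukin ligands and antagonists, 1 of 3 genes named after TNF, 1 of 6 CXC chemokines, 1 of 7 CC chemokines and 0 of 4 chemokine receptors. IL13RA1 and IL4R together made up 83.3% of the summed mean level of the 38 genes.

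Leukocyte markers, most of which an epithelial line should lack, give a scale for a normalized count of 40. The 16 markers listed here had means of 6.46 to 47.6 with a median of 16.5, close to the level of the 29 genes below 40. CD68, a lysosomal protein abundant in macrophages, averaged 47.6 and CD8A, a co-receptor of cytotoxic T cells, 41.9. No marker was listed at 0, as was true of every gene of the table. Only 5 of the 9 genes, IL13RA1, IL4R, TNF, IL11RA and IL6, were above the highest of these markers. Leukocyte genes outside the list were not all lower than CD68. HLA-DOB averaged 58.6 and CYBB 55.4, against 21.8 for RNASE2 and 19.7 for GZMM. The 5 genes were above these too. CXCL8, IL6R and CCL3L1, at 44.0 to 45.9, lay between CD8A and CD68, and CSF3R, at 41.5, lay below both. Whether CD68 is at background in these cells was not tested. The same 5 genes were the ones with all 6 samples at 40 or more. Of the 8 stromal and endothelial markers, PDGFRA (271) and PECAM1 (67.1) were above CD68. TNF, IL11RA and IL6 lay between these levels. Just outside the threshold was CCL21 at 39.0 and just inside it CSF3R at 41.5, a gap smaller than the SD of either gene within a group. The epithelial markers matched the label of the line for ERBB2 and its neighbor GRB7, with means of 9398 and 9985 normalized counts, KRT7 (7732), CDH1 (5852) and KRT5 (3347), whereas KRT14 and KRT17 were at 21.2 and 14.2. The sum of the 16 leukocyte markers was 290 to 351 in CTL samples and 286 to 353 in aCT1 samples.

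**Figure D1:**
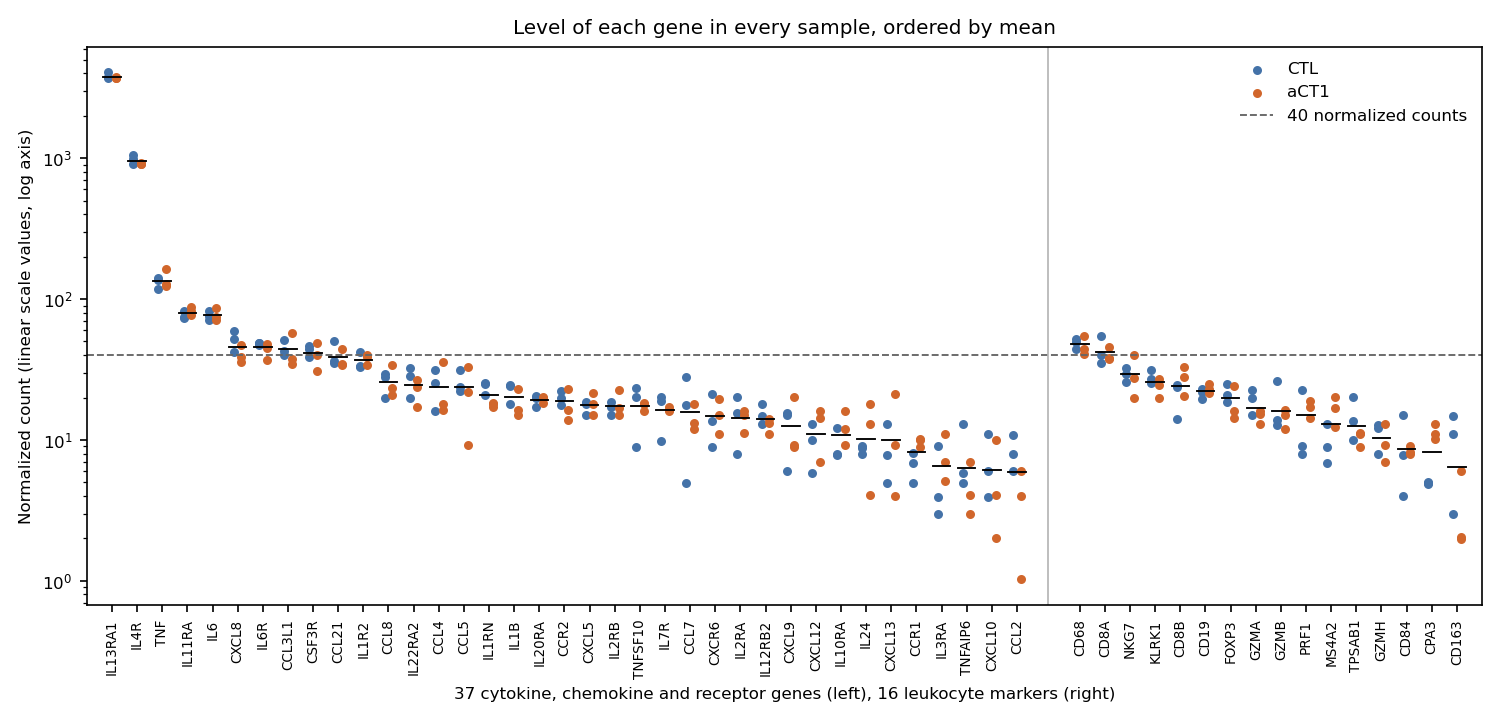
Normalized count (log axis) of 37 of the 38 genes and of 16 leukocyte markers, ordered by mean, with CTL samples in blue, aCT1 samples in orange, the mean over 6 samples as a black bar and 40 normalized counts as a dashed line. IL13RA1, IL4R, TNF, IL11RA and IL6 stand above CD68, the highest of these 16 markers (47.6). The other genes lie within the range of the markers or, for TNFAIP6, CXCL10 and CCL2, slightly below it.

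The sequence just before the start of these genes is shown for the 2 genes that dominate the group and for the 3 secreted factors best known as inflammatory signals. Windows of 300 bases, 250 before and 50 after the annotated start, were taken from RefSeq (GRCh38.p14), and 31 of the 38 genes had one. CCL2, CCL21, CCL3L1, CCL4, CCL5 and IL2RB were among those that did not. The 150 bases before the start are given 5′ to 3′ on the strand of the gene for IL13RA1 (chrX:118727456-118727605, + strand), IL4R (chr16:27313824-27313973, + strand), TNF (chr6:31575415-31575564, + strand), IL6 (chr7:22727050-22727199, + strand) and CXCL8 (chr4:73740419-73740568, + strand). Capitals mark matches on either strand to 3 motifs that were chosen with these promoters known. They are the core promoter element TATAAA, the AP-1 site TGANTCA and the NF-κB core GGNNTTTCC, and none of them overlaps another in the bases shown.
IL13RA1: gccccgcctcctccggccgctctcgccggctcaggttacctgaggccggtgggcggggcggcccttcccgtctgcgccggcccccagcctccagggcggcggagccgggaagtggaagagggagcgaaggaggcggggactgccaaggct
IL4R: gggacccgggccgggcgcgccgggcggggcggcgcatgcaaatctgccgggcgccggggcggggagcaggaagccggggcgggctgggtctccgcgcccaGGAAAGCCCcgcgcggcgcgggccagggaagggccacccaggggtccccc
TNF: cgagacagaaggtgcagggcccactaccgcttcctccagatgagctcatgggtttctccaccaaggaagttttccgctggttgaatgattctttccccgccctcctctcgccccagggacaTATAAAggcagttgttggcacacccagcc
IL6: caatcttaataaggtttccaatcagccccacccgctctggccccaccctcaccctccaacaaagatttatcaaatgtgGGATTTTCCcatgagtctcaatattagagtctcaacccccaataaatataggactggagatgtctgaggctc
CXCL8: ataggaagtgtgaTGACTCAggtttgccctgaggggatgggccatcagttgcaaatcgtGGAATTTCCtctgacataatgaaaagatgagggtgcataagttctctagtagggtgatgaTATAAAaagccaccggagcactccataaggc

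The windows of IL13RA1 and IL4R are rich in G and C, at 76.3% and 79.3%, with 35 and 42 CpG dinucleotides, and neither holds TATAAA. The windows of TNF, IL6 and CXCL8 are at 57.7%, 49.3% and 39.3%, with 11, 7 and 4 CpG. CXCL8 holds all 3 motifs, TNF the TATAAA element alone, IL6 and IL4R the NF-κB core alone (on the opposite strand in IL4R) and IL13RA1 none. The median G and C content was 60.5% in the 8 windows of genes at 40 or more, 46.7% in the 23 windows of genes below 40 and 58.3% over 27305 RefSeq promoters. TATAAA stood in 11 of the 31 windows (35.5%) and in 12% of all promoters, TGANTCA in 7 (22.6%) and in 7.76%, and GGNNTTTCC in 5 (16.1%) and in 6.26%. CXCL12, at a mean of 11.03 normalized counts, had a window of 77% G and C with 39 CpG, against 39.3% in CXCL8 at 45.9. Whether base content goes with level was not tested. A match is a description of letters, and binding was not measured.

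IL13RA1 and IL4R encode the chains of the type II receptor, which binds IL-4 and IL-13 on non-hematopoietic cells and signals through JAK1, TYK2, JAK2 and STAT6. IL13RA1 ranked 99th of the 758 genes by level. It had 3772, 4071 and 3722 normalized counts in CTL replicates 1 to 3, and 3688, 3749 and 3740 in aCT1 replicates 1 to 3. CTL replicate 2 stood above the rest, and the groups overlapped. CTL averaged 3855 ± 189 and aCT1 3726 ± 32.8 (SD, n = 3). The log2 fold change was -0.05 (95% interval -0.12 to 0.03, limma adjusted p = 0.752), and -0.0082 without CTL replicate 2. In bulk RNA, fewer cells carrying a transcript and less of it per cell cannot be told apart. The level of IL13RA1 was about 4 times that of IL4R, a comparison of normalized counts that also depends on the probes.

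IL4R, the chain shared by the receptors for IL-4 and IL-13, had 981, 1048 and 916 normalized counts in CTL and 921, 910 and 913 in aCT1. The aCT1 samples were tightly grouped, and the highest of them was just above the lowest CTL sample. The means were 982 ± 66.0 and 914 ± 5.87 (SD, n = 3), and the log2 fold change was -0.10 (95% interval -0.21 to 0.01, limma adjusted p = 0.542). An exact two-sided permutation test of the 6 values gave p = 0.2, where 0.1 is the smallest that 3 samples against 3 allow. This value depended on the scaling. When each sample was centred on the median of all its genes, the log2 fold change was -0.20 and passed 0.05 before adjustment but not after it (limma adjusted p = 0.262), and with quantile normalization it was -0.16 and did the same (limma adjusted p = 0.205). IL13RA1 also passed 0.05 before adjustment under both, at -0.15 with median centring (limma adjusted p = 0.326) and -0.065 with quantile normalization (limma adjusted p = 0.426). The centring shifted the log2 fold change of every gene by -0.098, and the median over all genes was 0.018 before it. Without CTL replicate 3 the log2 fold change of IL4R was -0.15 and passed 0.05 before adjustment, and without CTL replicate 2 it was -0.052 and did not.

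**Figure D2:**
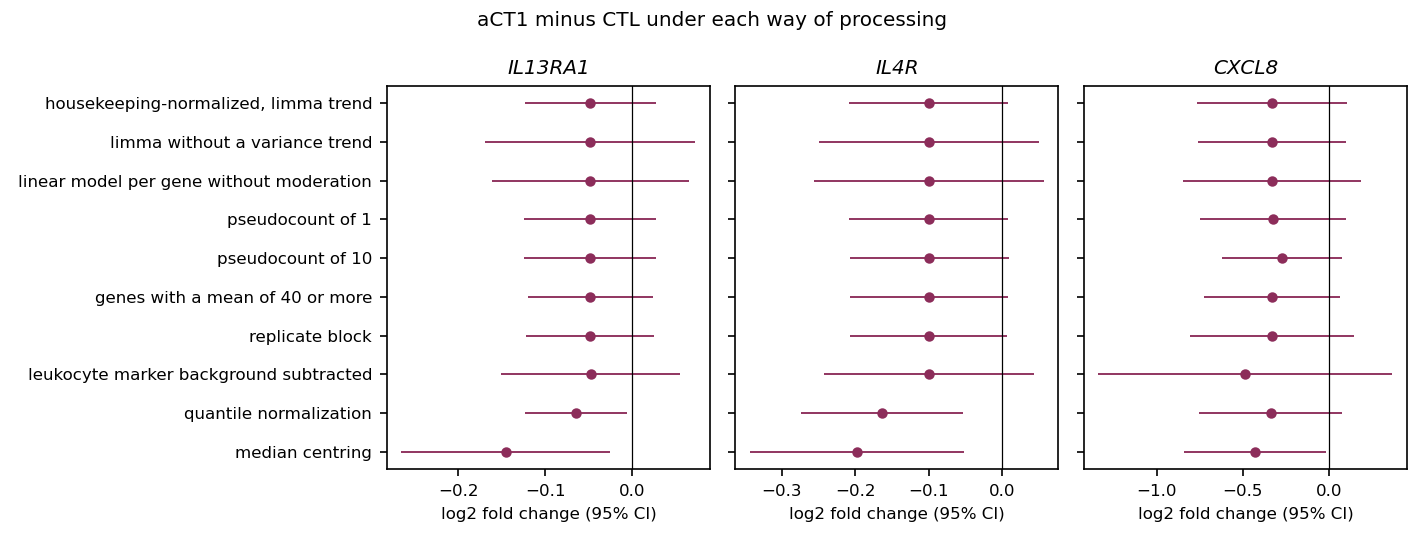
Log2 fold change of aCT1 minus CTL with its 95% interval (x axis, a separate scale for each gene) for IL13RA1, IL4R and CXCL8 under 10 ways of processing the same values (y axis). The intervals of IL13RA1 and IL4R lie below 0 with quantile normalization and median centring, that of CXCL8 with median centring alone, and each includes 0 under the housekeeping normalization.

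TNF, the secreted or membrane-bound ligand of the TNF receptors, was the highest ligand of the group. It had 141, 118 and 136 normalized counts in CTL and 163, 128 and 125 in aCT1. aCT1 replicate 1 was the highest sample, and the other aCT1 samples lay within the CTL range. The means were 131 ± 12.2 and 138 ± 21.5 (SD, n = 3), with a log2 fold change of 0.07 (95% interval -0.21 to 0.34, limma adjusted p = 0.965), and its sign turned with median centring, to -0.029. TNFSF10, which encodes the death ligand TRAIL, averaged 17.5 normalized counts. TNFAIP6, a hyaluronan-binding protein induced by TNF, averaged 6.34, with a log2 fold change of -0.72 and an interval that includes 0. The log2 fold change of TNFSF10 was 0.11, although its linear mean was 17.5 in both groups, and CTL replicate 2 was its lowest sample at 8.97.

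IL6, the ligand of the IL-6 receptor, had 82.2, 70.8 and 76.4 normalized counts in CTL and 71.1, 74.7 and 86.9 in aCT1. The groups overlapped throughout, with a log2 fold change of 0.02 (95% interval -0.29 to 0.33, limma adjusted p = 0.987) that became -0.080 with median centring. IL6R, its ligand-binding receptor chain, had 48.9, 48.9 and 47.2 in CTL and 45.1, 36.9 and 48.0 in aCT1. All CTL samples were within about 2 normalized counts of each other, aCT1 replicate 2 was lower, and the log2 fold change was -0.17 (95% interval -0.56 to 0.23, limma adjusted p = 0.880). IL11RA, the binding chain for IL-11, had 73.4, 82.8 and 74.4 in CTL and 88.1, 82.7 and 77.7 in aCT1. Its log2 fold change was 0.11 (95% interval -0.19 to 0.40, limma adjusted p = 0.926), and the ranges of IL11RA and IL6 overlapped, so their order by level is not settled.

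CXCL8, which attracts neutrophils through CXCR1 and CXCR2, had the largest fold difference among the 9 genes. It had 59.7, 41.9 and 52.3 normalized counts in CTL and 36.0, 46.8 and 38.8 in aCT1. CTL replicate 2 lay among the aCT1 samples. The means were 51.3 ± 8.95 and 40.6 ± 5.60 (SD, n = 3), and the log2 fold change was -0.33 (95% interval -0.77 to 0.10, limma adjusted p = 0.649). The standard error of this value was 0.20, where counting alone would give 0.18 if a normalized count is about 1 barcode. The value ranged from -0.47 to -0.21 with a sample left out. With median centring the value was -0.43 and passed 0.05 before adjustment (limma adjusted p = 0.383).

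CCL3L1, a close copy of the macrophage chemokine gene CCL3, had 43.1, 39.9 and 51.3 normalized counts in CTL and 57.1, 34.9 and 37.8 in aCT1. Whether its probe also binds CCL3 transcripts was not tested. CSF3R, the receptor for the granulocyte factor G-CSF, had 44.0, 38.9 and 46.2 in CTL and 49.1, 30.9 and 39.9 in aCT1. In both genes aCT1 replicate 1 was the highest sample and aCT1 replicate 2 the lowest. Their log2 fold changes were -0.08 and -0.13, the standard errors 0.22 and 0.21, and both signs turned without aCT1 replicate 2, to 0.062 and 0.042. The sign of CCL3L1 also turned without CTL replicate 3 (0.027) and without aCT1 replicate 3 (0.0041).

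**Figure D3:**
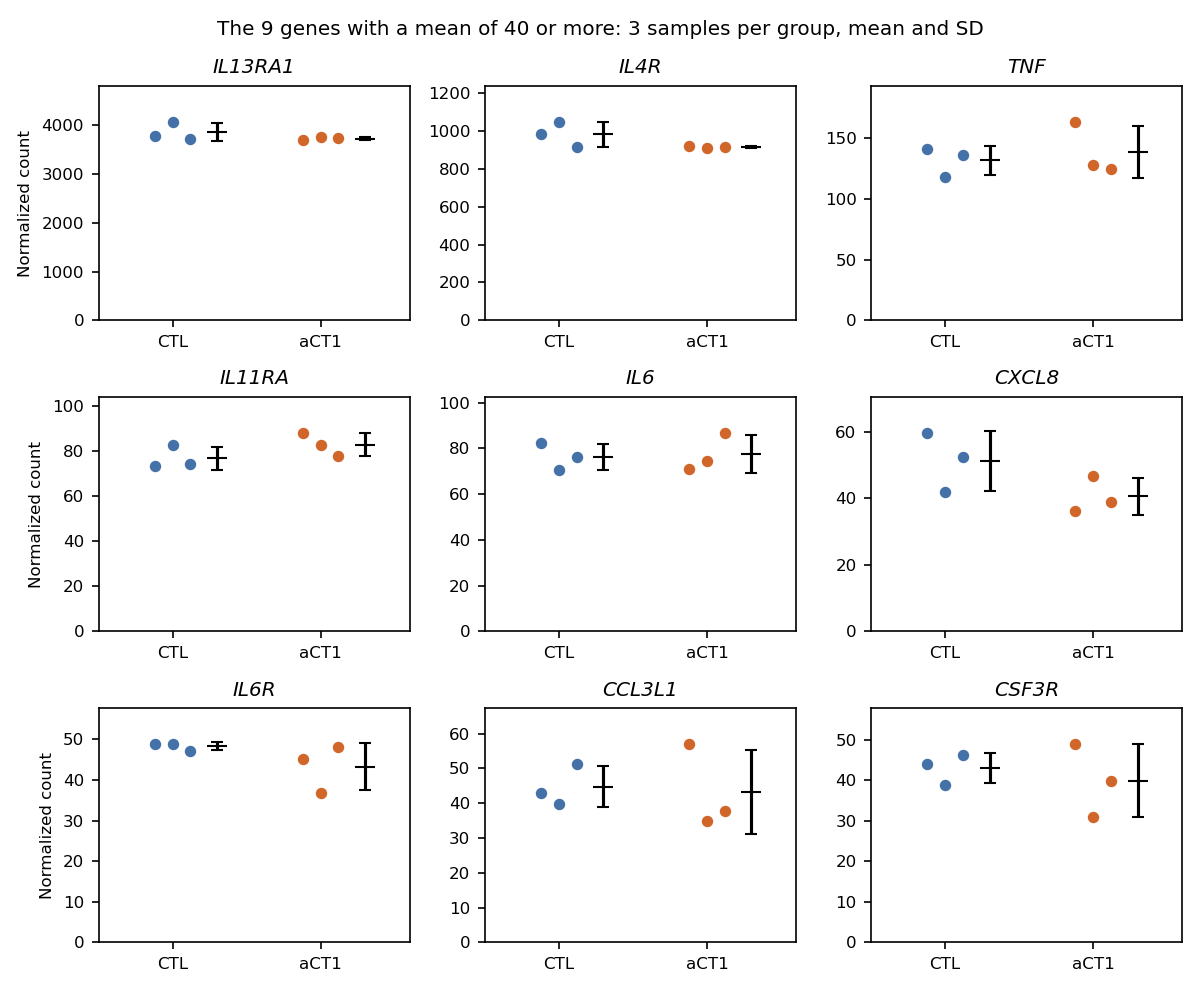
Normalized count (y axis, from 0) of the 9 genes with a mean of 40 or more in each CTL (blue) and aCT1 (orange) sample, replicates 1 to 3 from left to right, with the group mean and SD in black (n = 3). The groups overlap in each of the 9 genes.

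Of the 9 genes, 6 had a log2 fold change below 0 and 3 above 0. Their median was -0.075, against 0.014 over the 454 genes at 40 or more, of which 39.6% were below 0. Without aCT1 replicate 2 the median of the 9 became 0.042. At an unadjusted limma p under 0.05, 0 of these 9 genes were called, whereas 12.8% of the 454 genes were. The groups did not overlap in 0 of the 9, against 18.1% of the 454. Under the housekeeping normalization the intervals of IL13RA1 and IL4R reached down to -0.12 and -0.21 on the log2 scale, and with median centring to -0.27 and -0.34. For CSF3R, at 41.5 normalized counts, the interval under the housekeeping normalization ran from -0.59 to 0.33.

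Over all 38 genes, 1 was called at an unadjusted limma p under 0.05, against 9.37% of the 758 genes, and 0 had an adjusted p under 0.05, as was true of all genes (0.0%). Of the 29 genes below 40, 1 was called before adjustment, against 4.28% of the 304 genes at that level. The gene was CCL2, with the smallest adjusted p of the group (limma adjusted p = 0.371), and it was lower in aCT1, as were 2.9% of all genes at that threshold. CCL2, a monocyte attractant, had 10.8, 7.98 and 6.03 normalized counts in CTL and 6.01, 3.99 and 1.02 in aCT1. Its value in aCT1 replicate 3 is the smallest of any gene in that sample. Whether it stands for a count of 0 was not tested. Divided by the step between the values of its sample, CTL replicate 3 and aCT1 replicate 1 both come to 6. The log2 fold change was -1.47 (95% interval -2.73 to -0.21). If those steps are single barcodes, which the sources used here do not state, there were 11 in aCT1 against 25 in CTL. This gave a ratio of 0.446, with an exact 95% interval of 0.198 to 0.939 that covers counting error only. CCL2 was picked for this interval because it was called in the same values, so the interval is no separate evidence of a change. CCL2 ranked 755th of 758 genes by level, and it was no longer called without CTL replicate 1 (-1.26) or without aCT1 replicate 3 (-0.71). With all samples kept it was not called without a variance trend or without moderation either. Of the 16 leukocyte markers, 3 were called before adjustment, against 9.37% of all genes and 4.28% of the 304 genes below 40. These markers were CD163 at a log2 fold change of -1.44 (mean 6.46), CPA3 at 1.19 (mean 8.18) and MS4A2 at 0.79 (mean 13.02). Their part in the result was not tested.

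Values of the groups did not overlap in 3 of the 38 genes, against 14.2% of all genes, and all 3 were among the 29 genes below 40, against 8.55% of the 304. In 2 of them aCT1 was lower (4.88% of all genes) and in 1 it was higher (9.37%). Besides CCL2, these were IL1RN and CCR1, named after their values were seen. IL1RN, the antagonist that blocks the IL-1 receptor, had 25.4, 20.9 and 25.1 normalized counts in CTL and 17.0, 17.9 and 18.4 in aCT1, all aCT1 samples being lower (log2 fold change -0.42, limma adjusted p = 0.645). CCR1, a receptor for inflammatory CC chemokines, had 6.85, 4.99 and 8.04 in CTL and 10.0, 8.97 and 10.2 in aCT1, all aCT1 samples being higher (log2 fold change 0.58, limma adjusted p = 0.649). Both genes were picked for groups that do not overlap, a choice that favors a small spread within groups. Their values lay close together, with a variance over mean of 0.147 in IL1RN and 0.202 in CCR1. Counting alone gives 1 on average if a normalized count is about 1 barcode.

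**Figure D4:**
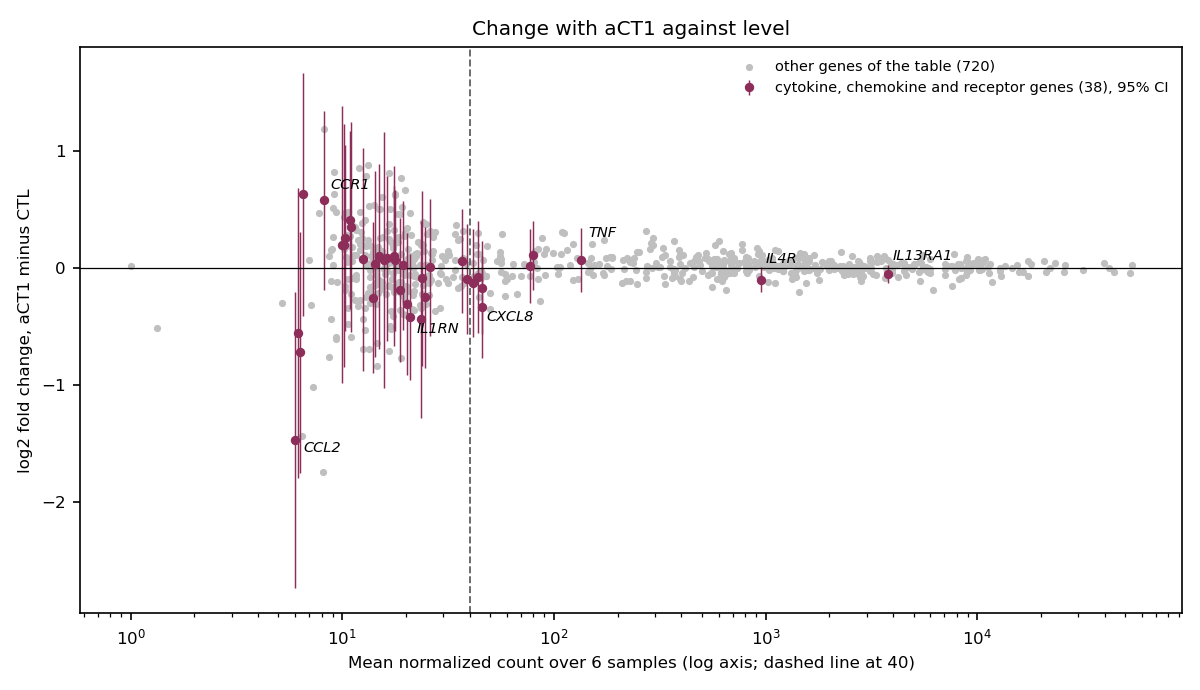
Log2 fold change of aCT1 minus CTL (y axis) against the mean normalized count over 6 samples (log x axis, dashed line at 40) for the 38 genes with 95% intervals in purple and the other 720 genes in grey. The fold changes of the 29 genes below 40 spread from -1.47 to 0.63, inside the -1.74 to 1.19 of the other 275 genes at that level, and those of the 9 genes at 40 or more lie between -0.33 and 0.11.

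The 29 genes below 40 had log2 fold changes of -1.47 to 0.63, with standard errors of 0.21 to 0.58. Of these, 18 were above 0 and 11 below 0 on the log2 scale, whereas by linear group means 15 were higher and 14 lower in aCT1, since TNFSF10, CCL7 and IL2RA differ in sign between the scales. The median size without sign was 0.20, against 0.19 over the 304 genes of the table below 40. The variance of the 29 genes within groups was a median of 1.30 times the mean. This ratio ranged from 0.110 for IL20RA to 4.33 for CCL7. Counting alone gives a ratio of 1 if a normalized count is about 1 barcode. Their summed level was 491, 404 and 565 normalized counts in CTL and 520, 450 and 444 in aCT1. The sum over all 304 genes below 40 was also lowest in CTL replicate 2 (4899) and was highest in aCT1 replicate 1 (6109) and CTL replicate 3 (5888). After adjustment 0 of these 29 genes passed 0.05, as was true of all genes (0.0%).

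Among CC chemokines below 40, CCL21, which guides T cells and dendritic cells to lymph nodes, had 36.2, 34.9 and 50.3 normalized counts in CTL and 34.0, 34.9 and 43.9 in aCT1. CCL8, another monocyte attractant, averaged 25.8 ± 5.12 in CTL and 26.2 ± 6.95 in aCT1 (SD, n = 3). CCL4 and CCL5, which attract T cells and monocytes, averaged 23.8 and 23.6 over the 6 samples. CCL5 ran from 9.20 to 32.9 within the aCT1 group alone, and its log2 fold change of -0.44 became 0.078 without aCT1 replicate 3 and -0.84 without aCT1 replicate 2. Among CXC chemokines, the interferon-induced CXCL9 and CXCL10 averaged 12.5 and 6.17, CXCL12, the ligand of CXCR4, 11.03, the B cell attractant CXCL13 10.0 and the neutrophil attractant CXCL5 17.7. The chemokine receptors CCR1, CCR2 and CXCR6 averaged 8.18 to 18.8, within the range of the leukocyte markers.

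Among the receptors below 40, IL1R2, a decoy that binds IL-1 without signaling, was nearest to the threshold, at 33.3, 32.9 and 42.2 normalized counts in CTL and 40.05, 33.9 and 38.8 in aCT1. IL22RA2, a soluble decoy for IL-22, averaged 24.7, with a log2 fold change of -0.25 (95% interval -0.85 to 0.35). IL20RA, a receptor chain for IL-20 family cytokines that epithelia are known to carry, averaged 19.3. The lymphoid and myeloid chains IL2RA, IL2RB, IL3RA, IL7R, IL10RA and IL12RB2 averaged 6.51 to 17.5. Of the interleukins, IL1B averaged 20.1 and IL24 10.1 normalized counts.

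Of 74 listed genes of the cytokine and TNF pathways outside the symbol rule, 24 were measured, and 16 of these reached 40 normalized counts, against 59.9% of all genes. STAT6 was not analysed here, and LTB, a TNF family ligand, lay between 40 and CD68 at 46.2. BCL2L1, an anti-apoptotic STAT target, averaged 7584, the AP-1 subunit JUN 7067, the feedback inhibitor SOCS2 1749 and the receptor kinase JAK1 1597. The other kinases of the type II receptor, TYK2 and JAK2, averaged 486 and 369. Of the 24 genes, 1 was higher at an unadjusted limma p under 0.05, the IL-6 family ligand LIF, at 887 ± 24.2 in CTL and 963 ± 23.6 in aCT1 (SD, n = 3, log2 fold change 0.12), and 1 was lower, the NF-κB target ICAM1, at 688 ± 14.8 and 607 ± 52.5 (SD, n = 3, log2 fold change -0.18). Over all genes, 6.46% were higher and 2.9% lower at that threshold, and neither gene passed after adjustment. PTGS2, another NF-κB target, averaged 14.7 normalized counts.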

How the data were processed

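The authors isolated total RNA from JIMT-1 cells and hybridized it to the nCounter Breast Cancer 360 panel. With nSolver 4.0 they scaled probe counts by housekeeping genes, and they deposited the result as a linear signal (the normalized counts) and as log2 values. A subtraction of background or scaling to positive controls is not given in the sources used here. Within a sample, every deposited signal divided by one step (0.979 to 1.02) gave a whole number to within 3.0e-05, as whole barcode counts divided by a factor would, but whether a step is 1 barcode is not given in the sources used here. Sums were 1453026 to 1484226 normalized counts per sample.

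The deposited log2 values of all 758 genes were fitted as aCT1 minus CTL in R 4.3.3 (limma 3.58.1), with a variance trend, two-sided p-values and Benjamini-Hochberg adjustment over all genes. Exact permutation tests and intervals used scipy 1.17.1. The model was tested on simulated counts. The members, gene lists and tests were chosen with earlier results of these data known. Named were genes at 40 or more, the 5 highest below 40, those with p under 0.05, and CXCL10, CXCL12 and CCL5. Results for 1 member and 1 pathway gene are counted but not reported by name here. Other members below 40 were named for their role after their values were seen. The pathway genes named were those with p under 0.05 and the 5 highest, with TYK2, JAK2, PTGS2 and LTB added afterwards. Alternatives were no variance trend, no moderation, pseudocounts of 1 and 10, median centring, quantile normalization, genes at 40 or more only, the replicate block, a background taken from leukocyte markers, other thresholds of expression and each sample left out. The 8 stromal and endothelial markers had means of 9.17 to 271, the highest being PDGFRA, and 0 with p under 0.05. Of the 7 epithelial markers, 1 had an unadjusted limma p under 0.05, against 9.37% of all genes. It was KRT7, higher in aCT1 (log2 fold change 0.12, limma adjusted p = 0.189).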

Additional observations from a re-analysis of the deposited data

How the results depend on the processing

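The number of genes at or above the level of expression was 9 at a mean of 40, 17 at a mean of 20, 5 at a mean of 50 and 5 where every sample had to reach 40, and it was 9 in each fit with a sample left out. The number of the 38 genes with an unadjusted p under 0.05 was 1 (CCL2) and became 2 without a variance trend (CCR1 and IL1RN), 4 with median centring (CCL2, CXCL8, IL13RA1 and IL4R), 3 with quantile normalization (CCL2, IL13RA1 and IL4R) and 0 among genes with a mean of 40 or more, where CCL2 was not tested. It was still 1 without moderation and with the leukocyte background subtracted, but the gene was then IL1RN. With a sample left out it ranged from 0 (without CTL replicate 1) to 3 (CCL2, IL3RA and IL4R, without CTL replicate 3), and it was 2 without aCT1 replicate 2 (CCL2 and CCL5) and 1 without aCT1 replicate 3, where the gene was IL24. Of all 758 genes, 71 were called by the main model, 48 without a variance trend and 63 without moderation. Median centring called 93, quantile normalization 83 and the subtracted leukocyte background 70. The fit of the 454 genes at 40 or more called 65. With a sample left out the number ran from 55 (without CTL replicate 1) to 86 (without CTL replicate 3). After adjustment, 0 of the 38 genes passed 0.05 under every alternative run. Over all genes, 6 passed with quantile normalization and at most 1 under any other. The median log2 fold change of the 9 genes, -0.075, was -0.17 with median centring and ranged from -0.11 to 0.042 with a sample left out.

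Among the 18 named genes, 5 log2 fold changes turned their sign with all samples kept, counted once for each gene and setting. With median centring these were TNF (-0.029), IL6 (-0.080), IL1R2 (-0.035) and CCL8 (-0.090), and with quantile normalization CCL8 (-0.0038). With a sample left out, 16 turned, counted once for each gene and sample left out, so that a gene can count more than once. The ranges of the genes that turned were -0.055 to 0.14 for TNF, -0.066 to 0.078 for IL6, -0.29 to 0.062 for CCL3L1 and -0.29 to 0.042 for CSF3R. They were -0.21 to 0.072 for CCL21, -0.20 to 0.15 for CCL8, -0.44 to 0.13 for CCL4, -1.16 to 0.0020 for CXCL10 and -0.84 to 0.078 for CCL5. The fold change of CCL2 was 0 with the leukocyte background subtracted, since all its values fell to the floor of 1. The cause of the other changes was not tested.

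Both groups are numbered 1 to 3. Across the 454 genes at 40 or more, the departures from the group mean correlated at -0.015, 0.14 and -0.21 between samples with the same number. The numbers were therefore not taken to pair the samples. With the replicate block, 1 of the 38 genes passed 0.05 before adjustment and 0 after it, as without the block. Over all 758 genes these numbers were 70 and 1 with the block. The planned edgeR and DESeq2 fits of whole counts were not run, since the table was treated as normalized signal. Depth limits the genes below 40 most. If a normalized count is about 1 barcode, CCL2 has a standard error of 0.52 (log2) from counting alone.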
